A study of Homo sapiens with 6 samples.

Results

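The HOX cluster genes were followed in HCT-116 cells, an established human colon carcinoma line, that carried the viral vector PMSCV either with GOLPH3 or empty. The members were taken by name from a fixed list of 38 HOX symbols, and all 38 were found among the 60546 gene identifiers of the expression table. They comprised 10 genes of the HOXA cluster on chromosome 7, 10 of HOXB on chromosome 17, 9 of HOXC on chromosome 12 and 9 of HOXD on chromosome 2. RNA-seq covered 3 libraries of the line HCT-116-PMSCV-GOLPH3 and 3 of its control HCT-116-PMSCV-Vector, and the titles gave P8, P12 and P13 for GOLPH3 replicates 1, 2 and 3 and P12, P11 and P13 for Vector replicates 1, 2 and 3. All 6 libraries shared the labels HCT-116, colon and wild type, and the one treatment label was the lysis reagent Trizol. Both lines were stable lines made by lentiviral infection, and the methods of the study drew the libraries of each line from 3 different generations. The labels did not say whether these were separate cultures, so the p-values measure the spread between these libraries, which may be technical.

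The deposited values were read counts divided by a size factor for each library, and they are called normalized reads here. The recovered reads ranged from 15708846 to 21900764 per library. A count of 0 in a library allows up to 3 reads, or 2.47 to 3.29 normalized reads, and limits of this kind cover counting error only. The targeted gene itself, GOLPH3, stood at 1630, 1272 and 1383 normalized reads under the label GOLPH3 and at 1968, 1892 and 1472 under the label Vector, so its transcript was not higher where it was to be overexpressed. Its log2 difference was -0.31 (adjusted p = 0.609, limma with Benjamini-Hochberg adjustment), and an exact two-sided permutation test gave p = 0.2, where 3 against 3 libraries cannot go below 0.1. Every direction below is therefore that of the libraries labelled GOLPH3 against the libraries labelled Vector.

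HOX genes encode homeodomain transcription factors that give cells their position along the body axis. In each cluster the genes lie in the order in which they are used from head to tail, from the low paralogue numbers at the 3′ end to the high numbers at the 5′ end. Cells in culture commonly keep a HOX pattern of their tissue of origin, and the proteins bind DNA together with cofactors of the TALE class such as PBX and MEIS.

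The HOX genes were lower in the libraries labelled GOLPH3 more often than they were higher, and the HOXD genes from HOXD9 to HOXD13 were close to or at 0 there. Of the 38 listed genes, 34 had enough reads to be tested. With limma on log2(normalized reads + 1), 10 were lower and 0 were higher at an adjusted p under 0.05. For comparison, 5.07% of the 26536 genes tested were called in either direction and 4.12% were called lower. The 10 genes were HOXA5, HOXB2, HOXC4, HOXC8, HOXC10, HOXC11, HOXD9, HOXD10, HOXD11 and HOXD13. At an unadjusted p under 0.05, 18 were lower and 0 were higher, beside 10.1% of all genes tested that were lower at that threshold. In 17 of the 38 every GOLPH3 library was below every Vector library, beside 12.8% of all genes tested. In 1, HOXB7, every GOLPH3 library was above, and the share over all genes in that direction is not given here. The log2 difference was negative in 33 of the 38 and its median was -1.15, against a median of 0.02 and a negative sign in 49.1% over all genes tested. HOXD11 and HOXD13 passed the filter only through the Vector libraries, since neither reached 1 normalized read in any GOLPH3 library. HOXD9, with 0, 0 and 5.34 normalized reads in the GOLPH3 libraries, and HOXD10, with 4.29, 0 and 1.07, also needed Vector libraries to pass. The counts are therefore given over all 38 listed genes. Without Vector replicate 1 the number lower was 6 and without Vector replicate 3 it was 5. HOXB2, HOXC8 and, without replicate 3, HOXC10 then missed the threshold, while HOXD11 and HOXD13 could not be fitted because the filter needs 3 libraries.

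**Figure D1:**
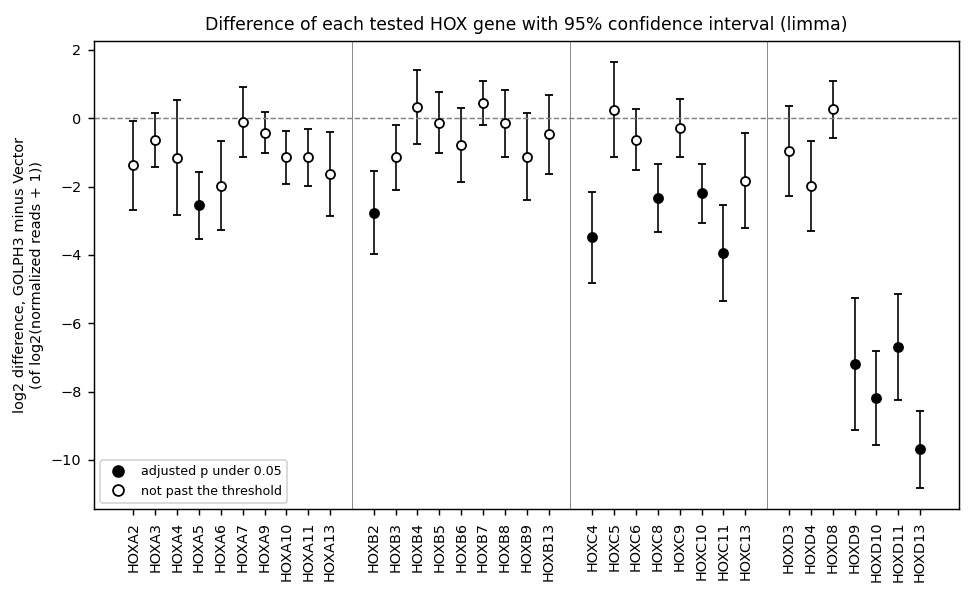
Log2 difference of each of the 34 tested HOX genes (GOLPH3 minus Vector, limma on log2(normalized reads + 1)), in order of paralogue number within each cluster. Bars are 95% confidence intervals and filled points passed an adjusted p under 0.05, and the 4 filled HOXD points lie between -6.69 and -9.70.

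Genes known from other cell types moved with the same labels. In a list of 10 genes known to be expressed in HEK293 cells, a human embryonic kidney line, 7 were lower in the libraries labelled GOLPH3 and 0 were higher. IRS4, NEFL, NEFM and UCHL1 of these 7 passed the filter only through the Vector libraries, so the count is given over all 10 listed. CDH2, VIM and ROBO1 were the rest of the 7, and of these CDH2 and ROBO1 also needed Vector libraries to pass the filter. The 7 were 70% of the list, beside 4.12% of all genes tested called lower. The summed level was 1080, 2125 and 2135 normalized reads in the GOLPH3 libraries and 11873, 6914 and 17130 in the Vector libraries. GAL supplied most of the sum in the GOLPH3 libraries, and without it the sums were 142, 156 and 144 against 9882, 5642 and 15442. IRS4, a receptor substrate abundant in HEK293 cells, was at 0 in all GOLPH3 libraries and had 1412, 1006 and 4831 normalized reads in the Vector libraries. NEFM and UCHL1 were also at 0 in all GOLPH3 libraries, whereas GAL and PAX2 of the same list overlapped between the groups. These lists were written with earlier results of these data known.

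Of 12 colon epithelial markers, KRT18 and KRT19, both epithelial keratins, were called higher in the libraries labelled GOLPH3. LGR5, an intestinal stem cell receptor, was called lower. KRT8, EPCAM and CDH1 were also higher without overlap but missed the threshold (adjusted p = 0.125, 0.103 and 0.058, limma). In all, 5 of the 12 were higher without overlap and 1 was lower. Over all genes tested 12.8% were lower without overlap, and the share higher without overlap is not given here. The 12 markers summed to 79292, 62851 and 134422 normalized reads in the GOLPH3 libraries and to 30122, 34792 and 41222 in the Vector libraries. The keratins KRT8, KRT18 and KRT19 supplied most of that sum, and KRT8 itself was not called. KRT20 was at 0 in all 6 libraries and CDX1 had reads in 1 library only. CDX2, a homeodomain factor of the intestine, had 247, 261 and 358 normalized reads in the GOLPH3 libraries and 415, 184 and 897 in the Vector libraries, which overlapped. Of 12 fibroblast markers, PDGFRA and TWIST2, both of which passed the filter only through the Vector libraries, were lower, and the summed level of 859 to 1565 in the GOLPH3 libraries overlapped with 543 to 986 in the Vector libraries. COL1A1 supplied most of that sum, while DCN was at 0 in all 6 libraries. The share called was 25% of the colon list and 16.7% of the fibroblast list, beside 5.07% of all genes tested. The part of these markers in the HOX differences was not tested, and a smaller share of cells expressing a gene cannot be told apart from less RNA per cell in such bulk libraries.

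**Figure D2:**
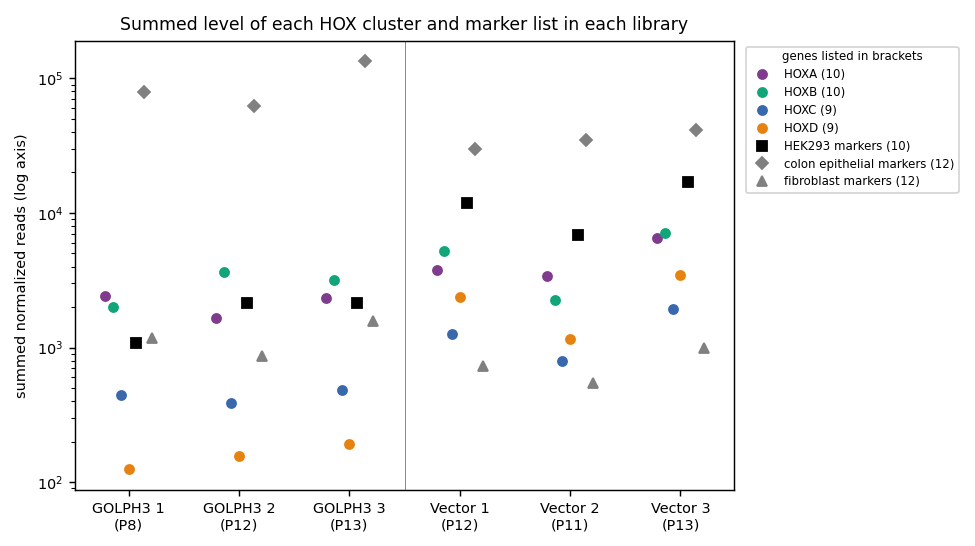
Summed normalized reads (log axis) of the HOX clusters and of the 3 marker lists in each library, with the number of genes listed in brackets and points shifted sideways for legibility. The HOXD and HOXC sums and the HEK293 marker sum are each lower in all 3 GOLPH3 libraries than in any Vector library, whereas the HOXB sums overlap.

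The HOXD cluster showed the widest differences. HOXD9, HOXD10, HOXD11 and HOXD13, which lie side by side at the 5′ end with HOXD12, summed to 4.29, 0.825 and 6.40 normalized reads in the GOLPH3 libraries and to 2122, 1041 and 3172 in the Vector libraries. HOXD8, the next gene of the cluster, was expressed in all 6 libraries and overlapped between the groups.

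HOXD13 (ENSG00000128714, GRCh38 chromosome 2, 176092891 to 176095938, plus strand) is the last gene of the cluster and is needed for digits and the genital tract. It had no read in any of the 3 GOLPH3 libraries and 804, 527 and 1340 normalized reads in the Vector libraries. Against the limit set by 3 reads in each library, the Vector mean of 890 ± 413 (SD, n = 3) was at least 276-fold higher. The fitted log2 difference was -9.70 with a standard error of 0.51 (adjusted p = 1.30e-06, limma with Benjamini-Hochberg adjustment).

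HOXD10 (ENSG00000128710, chromosome 2, 176108790 to 176119942), which patterns hindlimb motor neurons, had 4.29, 0 and 1.07 normalized reads in the GOLPH3 libraries and 815, 389 and 848 in the Vector libraries. These were 5 reads against 2135 reads in all, and the Vector mean was 383 times the GOLPH3 mean. The log2 difference was -8.19 with a standard error of 0.63 (adjusted p = 8.90e-06, limma).

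HOXD9 (ENSG00000128709, chromosome 2, 176122720 to 176124937) had 0, 0 and 5.34 normalized reads in the GOLPH3 libraries and 357, 77.8 and 700.3 in the Vector libraries. The groups did not overlap, although the Vector libraries themselves spread widely around a mean of 378 ± 312 (SD, n = 3). The log2 difference was -7.19 with a standard error of 0.89 (adjusted p = 0.000302, limma).

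HOXD11 (ENSG00000128713, chromosome 2, 176104216 to 176109754), which acts with HOXA11 in the forearm and kidney, had 0, 0.825 and 0 normalized reads in the GOLPH3 libraries and 146, 47.1 and 284 in the Vector libraries. Its only read in the GOLPH3 libraries stood against 516 in the Vector libraries, a depth-scaled ratio of 521 with a 95% counting interval from 93.2 to 20630.5. The log2 difference was -6.69 with a standard error of 0.71 (adjusted p = 8.79e-05, limma). HOXD10 and HOXD11 share 16.8% and 21.4% of their exon bases with each other in GENCODE 29, so reads there may have been counted for the other gene or left out.

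The other HOXD genes were lower in depth or overlapped. HOXD12 had 0, 0.825 and 0 normalized reads in the GOLPH3 libraries and 5.15, 0 and 10.3 in the Vector libraries, and HOXD1 had 0 in all GOLPH3 libraries and at most 4.29 in a Vector library, so neither had the reads to be tested. HOXD8 (chromosome 2, 176129694 to 176132695) had 94.5, 115 and 156 normalized reads in the GOLPH3 libraries and 118, 77.8 and 107 in the Vector libraries. The groups overlapped, and the log2 difference of 0.26 had a 95% interval from -0.58 to 1.09 (adjusted p = 0.785, limma). Between HOXD8 and its neighbour HOXD9 the groups thus changed from overlapping to far apart. HOXD4 had 12.9, 21.4 and 9.61 against 73.1, 25.2 and 106 normalized reads, without overlap, but missed the threshold (log2 difference -1.99, adjusted p = 0.091, limma). HOXD3 overlapped between the groups, with a log2 difference of -0.96. Most exon bases of HOXD4 (80.5%) and HOXD3 (74.1%) are shared with other annotated genes, so their counts are uncertain.

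**Figure D3:**
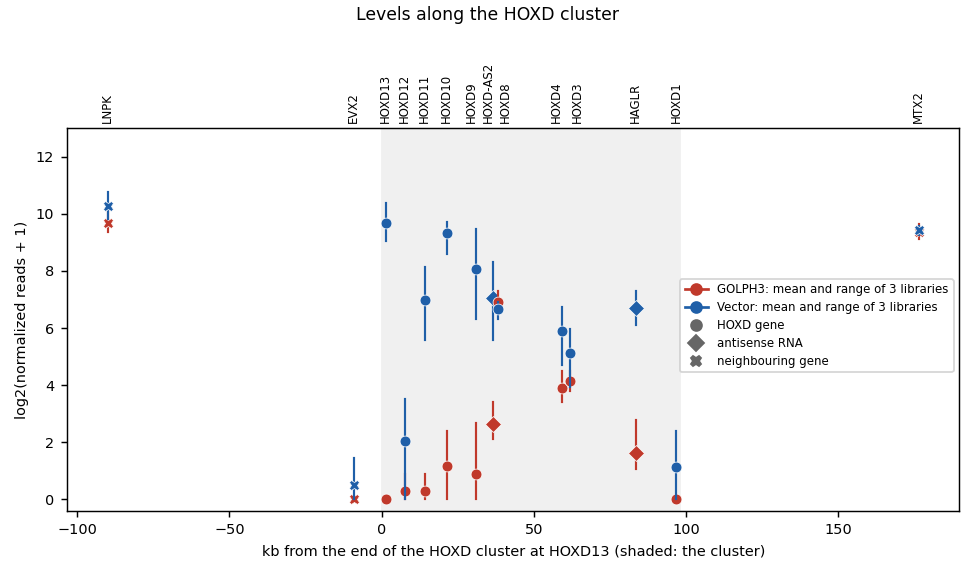
Normalized reads (log2(value + 1)) of the HOXD genes, 2 antisense RNAs and 3 neighbouring genes against their distance in kb from the HOXD13 end of the cluster, which is shaded. Points are means and lines the ranges of 3 libraries. The groups are far apart from HOXD13 to HOXD9 except at HOXD12, meet at HOXD8, and overlap at LNPK and MTX2 outside the cluster. Beyond HOXD8 they are apart again at HOXD4 and at the antisense RNA HAGLR. They are also apart at the antisense RNA HOXD-AS2, drawn between HOXD9 and HOXD8.

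The HOXD genes moved together up to HOXD9 and not at HOXD8. The sequences before the starts of HOXD13, HOXD11, HOXD10 and HOXD8 are therefore shown, with HOXC4 as a called gene of another cluster. None was available for HOXD9. Each is the stretch of 250 bases before a RefSeq transcript start on GRCh38.p14, plus strand, 5′ to 3′. The windows are chr2:176092471-176092720 for HOXD13, chr2:176107030-176107279 for HOXD11, chr2:176116528-176116777 for HOXD10, chr2:176129455-176129704 for HOXD8 and chr12:54016638-54016887 for HOXC4. The capitals mark CG dinucleotides, the sites of DNA methylation in vertebrates.
HOXD13: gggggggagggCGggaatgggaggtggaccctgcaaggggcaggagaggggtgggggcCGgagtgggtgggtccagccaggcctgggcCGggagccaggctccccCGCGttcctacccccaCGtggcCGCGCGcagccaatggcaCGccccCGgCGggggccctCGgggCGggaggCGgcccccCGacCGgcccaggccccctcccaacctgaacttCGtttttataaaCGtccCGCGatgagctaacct
HOXD11: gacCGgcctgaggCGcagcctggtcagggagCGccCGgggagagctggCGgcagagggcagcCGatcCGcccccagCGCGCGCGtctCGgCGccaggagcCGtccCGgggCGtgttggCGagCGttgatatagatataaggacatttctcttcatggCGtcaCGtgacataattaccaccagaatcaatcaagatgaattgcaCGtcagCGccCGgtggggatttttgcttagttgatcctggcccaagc
HOXD10: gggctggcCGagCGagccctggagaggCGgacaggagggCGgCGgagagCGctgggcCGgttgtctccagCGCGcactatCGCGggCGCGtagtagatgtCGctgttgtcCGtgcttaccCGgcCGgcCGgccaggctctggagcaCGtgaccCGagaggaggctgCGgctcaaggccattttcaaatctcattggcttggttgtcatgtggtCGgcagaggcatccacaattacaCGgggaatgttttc
HOXD8: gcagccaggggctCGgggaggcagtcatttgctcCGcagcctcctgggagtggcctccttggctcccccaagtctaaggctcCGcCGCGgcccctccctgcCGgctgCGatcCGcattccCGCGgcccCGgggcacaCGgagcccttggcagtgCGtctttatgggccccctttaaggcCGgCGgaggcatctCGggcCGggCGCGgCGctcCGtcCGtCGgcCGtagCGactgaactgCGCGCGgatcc
HOXC4: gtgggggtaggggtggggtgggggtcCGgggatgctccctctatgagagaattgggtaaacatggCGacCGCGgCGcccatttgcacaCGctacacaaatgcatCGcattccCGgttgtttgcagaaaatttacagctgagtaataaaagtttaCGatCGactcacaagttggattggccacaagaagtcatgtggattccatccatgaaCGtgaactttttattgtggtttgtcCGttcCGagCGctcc

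The windows of HOXD13, HOXD11, HOXD10 and HOXD8 held more CG dinucleotides than most windows, and that of HOXC4 was near the middle. HOXD9, the called gene next to HOXD8, had no window in the reference used, so it is not covered. HOXD13 held 21 CG dinucleotides, HOXD11 23, HOXD10 23, HOXD8 28 and HOXC4 14, against a median of 11 over 34943 distinct windows of the same length. In all, 20 of the 38 genes had a window, some of them several, and the median over their 26 distinct windows was 19.5, with a range from 0 to 40. A CDX-type motif, TTTATNG on either strand, was present in 8.95% of all windows and in 6 of the 26 HOX windows, which include that of HOXD8 and the one shared by HOXC4 and HOXC5. A PBX-HOX-type motif, TGATTNAT on either strand, was present in 2.49% of all windows and in 2 HOX windows, those of HOXD11 and HOXA2. Matches of the motifs were allowed to overlap. HOXC4 and HOXC5 shared 1 window in the RefSeq table, yet only HOXC4 was called. Methylation and binding were not measured here.

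In the HOXC cluster 4 of 9 listed genes were lower in the libraries labelled GOLPH3, beside 4.12% of all genes tested called lower. HOXC9, the gene with the highest level per kb of exon there, was not called. HOXC11 (ENSG00000123388, chromosome 12, 53973126 to 53977643, plus strand), a posterior gene, had 8.59, 1.65 and 9.61 normalized reads in the GOLPH3 libraries and 96.8, 60.3 and 164 in the Vector libraries. The Vector mean was 16.2 times the GOLPH3 mean, without overlap, and the log2 difference was -3.95 with a standard error of 0.65 (adjusted p = 0.00266, limma with Benjamini-Hochberg adjustment).

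HOXC4 (ENSG00000198353, chromosome 12, 54016931 to 54056030) had 45.1, 11.5 and 27.8 normalized reads in the GOLPH3 libraries and 326, 125 and 566 in the Vector libraries. All GOLPH3 libraries were below all Vector libraries, and the Vector mean was 12.1 times higher (log2 difference -3.49, standard error 0.61, adjusted p = 0.00417, limma). HOXC8 (chromosome 12, 54009106 to 54012362), a gene of the thoracic region, had 42.9, 16.5 and 25.6 against 139, 115 and 159 normalized reads (log2 difference -2.33, adjusted p = 0.00977, limma). HOXC10 (chromosome 12, 53985065 to 53990279), used in the lumbar spinal cord, had 36.5, 36.3 and 49.1 against 174, 151 and 252 (log2 difference -2.20, adjusted p = 0.00513, limma). In both genes the groups were separated by more than the spread within either of them.

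HOXC9 had 148, 200.4 and 145 normalized reads in the GOLPH3 libraries and 201, 128 and 303 in the Vector libraries. These values overlapped, and the log2 difference of -0.28 had a 95% interval from -1.13 to 0.56. HOXC13, a gene of hair and nail, did not overlap between the groups but missed the threshold, with a log2 difference of -1.84 (adjusted p = 0.141, limma). HOXC6 and HOXC5 overlapped, with log2 differences of -0.63 and 0.25. HOXC5 had at most 8.54 normalized reads, and 59.9% of its exon bases are shared with other annotated genes. HOXC12 had 1 read in 1 GOLPH3 library and 3 reads in 1 Vector library and was not tested.

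In the HOXA cluster all 10 listed genes had a negative log2 difference, from -0.11 for HOXA7 to -2.55 for HOXA5, and 1 of them passed the threshold. Over all genes tested 49.1% had a negative log2 difference and 4.12% were called lower. HOXA5 (ENSG00000106004, chromosome 7, 27141052 to 27143668, minus strand), needed in the developing lung, had 203, 115 and 180.4 normalized reads in the GOLPH3 libraries and 852, 518 and 1969 in the Vector libraries. The groups did not overlap, the Vector mean was 6.70 times the GOLPH3 mean, and the log2 difference was -2.55 with a standard error of 0.45 (adjusted p = 0.00471, limma with Benjamini-Hochberg adjustment).

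HOXA9, a gene of blood progenitors and the HOXA gene with the highest level per kb, had 1309, 896 and 1140.1 normalized reads in the GOLPH3 libraries and 1402, 1469 and 1559 in the Vector libraries. The groups did not overlap, but the log2 difference of -0.42 missed the threshold (adjusted p = 0.475, limma). HOXA10, known for its role in the uterus, had 322, 198 and 397 against 546, 559.8 and 909 normalized reads (log2 difference -1.15, adjusted p = 0.097, limma). HOXA6 had 55.8, 44.5 and 52.3 against 167, 82.2 and 595 (log2 difference -1.97, adjusted p = 0.091, limma). Neither HOXA10 nor HOXA6 overlapped between the groups, and in both Vector replicate 3 was the highest library. HOXA11 and HOXA13, the most posterior genes of the cluster, also did not overlap and missed the threshold (log2 differences -1.15 and -1.63, adjusted p = 0.125 and 0.139, limma). HOXA2, HOXA3, HOXA4 and HOXA7 overlapped between the groups, and HOXA7 shares 62.5% of its exon bases with the antisense gene HOXA-AS3.

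In the HOXB cluster 1 of 10 listed genes was lower, beside 4.12% of all genes tested called lower, and the others overlapped or went the other way. HOXB2 (ENSG00000173917, chromosome 17, 48540894 to 48544989, minus strand), a hindbrain gene, had 20.4, 45.4 and 26.7 normalized reads in the GOLPH3 libraries and 287, 84.4 and 348 in the Vector libraries. The groups did not overlap, the Vector mean was 7.79 times the GOLPH3 mean, and the log2 difference was -2.76 with a standard error of 0.56 (adjusted p = 0.0117, limma with Benjamini-Hochberg adjustment).

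HOXB7 (chromosome 17, 48607227 to 48633572) had 455, 443 and 657 normalized reads in the GOLPH3 libraries and 358, 375 and 386 in the Vector libraries. It was the only listed gene that was higher in every GOLPH3 library than in every Vector library, but its log2 difference of 0.45 had a 95% interval from -0.20 to 1.10 and missed the threshold (adjusted p = 0.484, limma). HOXB9, the HOXB gene with the highest level per kb, had 382, 1759.7 and 653 against 2684, 699 and 2473 normalized reads and overlapped, because GOLPH3 replicate 2 was above Vector replicate 2. HOXB3 had 202, 195 and 270.1 against 453, 262 and 961, and HOXB6 had 233, 364 and 387 against 473, 272 and 1314. Both overlapped through Vector replicate 2, and their adjusted p were 0.189 and 0.460 (limma). HOXB4, HOXB5, HOXB8 and HOXB13 overlapped as well, with log2 differences from -0.47 for HOXB13, which is typical of the distal colon and prostate, to 0.33 for HOXB4, a gene of blood stem cells. HOXB1 had no read in any library.

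**Figure D4:**
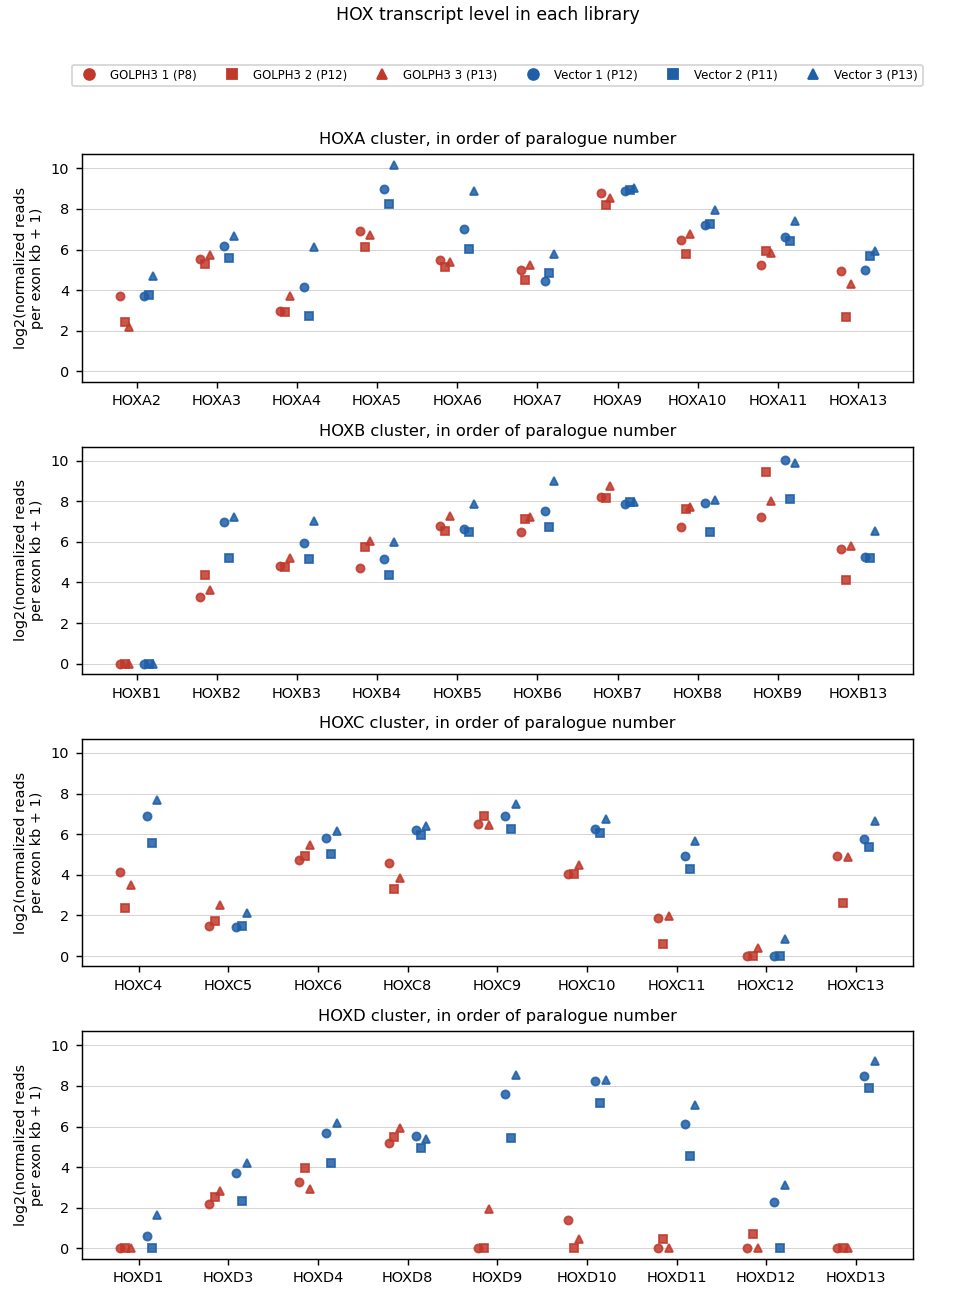
Level of each of the 38 HOX genes in each library, as log2(normalized reads per kb of exon + 1), in order of paralogue number within each cluster. Most Vector points lie above the GOLPH3 points in HOXA and HOXC and from HOXD9 to HOXD13, while most HOXB genes from HOXB4 to HOXB8 overlap.

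Per kb of exon, the leading HOX genes differed between the labels. In the libraries labelled GOLPH3 the mean level per kb was highest for HOXA9 with 368 normalized reads, HOXB9 with 361 and HOXB7 with 339. In the libraries labelled Vector it was highest for HOXB9 with 756, HOXA5 with 652, HOXA9 with 488 and HOXD13 with 397. Within HOXD the leading gene was HOXD8 with 46.3 per kb in the GOLPH3 libraries and HOXD13 in the Vector libraries. These levels are a description and were not tested between genes.

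The clusters differed in how far their sums were apart. The HOXD sum was 125, 155 and 193 normalized reads in the GOLPH3 libraries and 2363, 1158 and 3460 in the Vector libraries, and the HOXC sum was 445, 388 and 487 against 1262, 793 and 1937. The HOXA sum was 2435, 1657 and 2335 against 3766, 3388 and 6465. In these clusters every GOLPH3 library was below every Vector library, whereas the HOXB sum of 1996, 3645 and 3176 overlapped with 5213, 2256 and 7053. The median log2 difference was -1.99 in HOXD, -1.84 in HOXC, -1.15 in HOXA and -0.31 in HOXB. The HOXD median depends on which low genes are included and on the pseudocount, since it was -3.07 with a pseudocount of 0.1.

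By position, 1 of 7 genes of paralogue numbers 1 to 3, 3 of 15 of numbers 4 to 8 and 6 of 16 of numbers 9 to 13 were lower. Over all genes tested 4.12% were called lower, and at that share groups as small as those below hold few calls or none. The median log2 differences of these position groups were -1.14, -0.63 and -1.69. The split was sharpest in HOXD, where the genes 9 to 13 summed to 4.29, 1.65 and 6.40 against 2128, 1041 and 3182 normalized reads. HOXD4 and HOXD8 together had 107, 136 and 165 against 191, 103 and 213, mostly from HOXD8 in the GOLPH3 libraries. HOXD4 alone was lower without overlap, with 12.9, 21.4 and 9.61 against 73.1, 25.2 and 106, though it was not called. In HOXC the split between positions was not seen. There the genes 9 to 13 summed to 265, 251 and 273 against 600.1, 438 and 959. The genes 4 to 8 summed to 180.3, 137 and 213 against 662, 355 and 977. In both HOXC groups of genes the GOLPH3 libraries were below the Vector libraries. In HOXA the order depended on the measure. The genes 4 to 8 had a median log2 difference of -1.57 with 1 of 4 called and the genes 9 to 13 a median of -1.15 with 0 of 4 called. Yet 4 of 4 genes of numbers 9 to 13 were lower without overlap, against 2 of 4 of numbers 4 to 8, beside 12.8% of all genes tested. In HOXB 0 of 5 genes of numbers 4 to 8 and 0 of 2 of numbers 9 to 13 were called, so the 6 called genes of numbers 9 to 13 all lay in HOXC and HOXD. No test was made of the difference between positions or clusters, since genes of a cluster are not replicates.

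The HOX genes shared an order of the Vector libraries that the labels do not give. Of the 37 genes with reads in a Vector library, 29 were lowest in Vector replicate 2 and 35 were highest in Vector replicate 3, and 27 (73.0%) showed both. Over all genes tested the share that showed both was 25.1%. The sum over all 38 genes was 12605, 7595 and 18915 normalized reads in Vector replicates 1, 2 and 3 and 5000.2, 5845 and 6190.3 in the GOLPH3 libraries. The HEK293 marker sum given above had the same order of the Vector libraries, and its part in the HOX order was not tested.

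Within the 2 pairs of libraries with the same P number most genes had a negative difference. At P12 32 of 38 genes had a negative log2 difference, with a median of -1.24, and at P13 33 of 38 did, with a median of -1.77. The 10 called genes had to be lower in both pairs, since their groups did not overlap, and their sizes are given as a description. HOXD13 differed by -9.65 and -10.4 and HOXC8 by -3.00 and -2.59 on the log2 scale at P12 and P13. P8 and P11 were each held by 1 label only, so no pair could be formed there. Each pair has 1 library per label and gives no test.

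**Figure D5:**
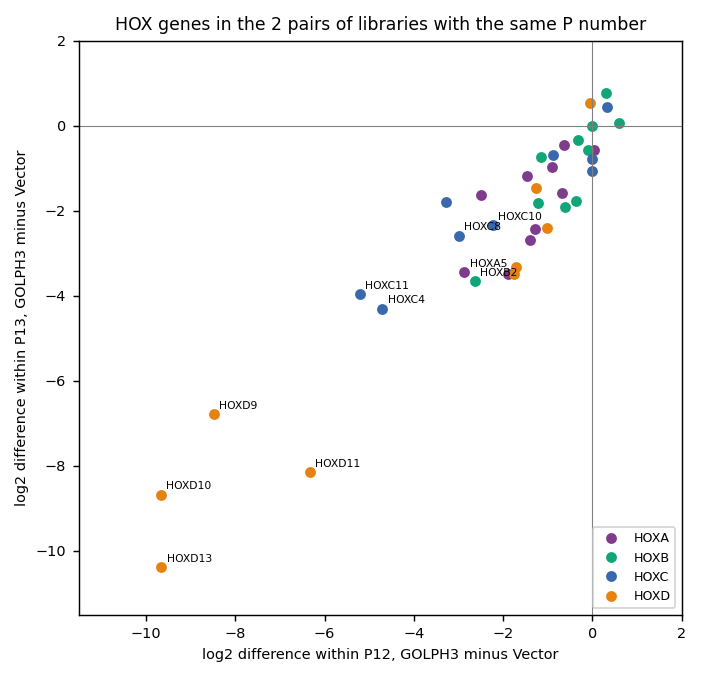
Log2 difference (GOLPH3 minus Vector, of log2(normalized reads + 1)) of each of the 38 HOX genes within P12 and within P13, coloured by cluster, with the 10 called genes named. Most points lie in the lower left, and HOXD9, HOXD10, HOXD11 and HOXD13 lie farthest out in both pairs.

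Some noncoding RNAs of the clusters were lower as well. Of 26 listed noncoding and small neighbouring genes 19 were tested, 5 were lower and 0 were higher in the libraries labelled GOLPH3. The 5 were 19.2% of the list, beside 4.12% of all genes tested called lower. HAGLR, an antisense RNA of the HOXD cluster, had 1.07, 5.77 and 1.07 against 98.8, 67.9 and 157 normalized reads (log2 difference -5.06, adjusted p = 0.000334, limma). The middle of HAGLR lies 83.6 kb from the HOXD13 end of the cluster, beyond HOXD8. HOXD-AS2, which runs across HOXD8 and HOXD9 on the opposite strand, had 4.29, 3.30 and 9.61 against 153, 47.1 and 318 (log2 difference -4.42, adjusted p = 0.00186, limma). Neither followed HOXD8, whose groups overlapped. HOTAIR, a HOXC antisense RNA known for its link to Polycomb proteins, had 5.37, 1.65 and 2.13 against 32.9, 17.5 and 83.2 (log2 difference -3.32, adjusted p = 0.0137, limma). HOXC13-AS, which passed the filter only through the Vector libraries, and HOXA-AS3 were also lower, with log2 differences of -3.89 and -2.24. HOTAIRM1 of the HOXA cluster and HOXB-AS3, the most abundant of the list per kb, were not called (log2 differences -1.50 and -0.47). Reads of an antisense RNA and its partner cannot be told apart where the exons overlap, since the strand setting of the counting is not given in the sources used here.

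Among 11 TALE cofactors, which bind DNA with HOX proteins, 2 were lower and 0 were higher. That was 18.2% of the list, beside 4.12% of all genes tested called lower. MEIS1 had no read in the GOLPH3 libraries and 96.8, 63.5 and 118 normalized reads in the Vector libraries, at least 28.8-fold more (adjusted p = 2.19e-05, limma). It passed the filter only through the Vector libraries, so the count of 2 is given over all 11 listed. PKNOX2 had 1.07, 0.825 and 1.07 against 155, 55.9 and 199 (log2 difference -5.93, adjusted p = 6.99e-05, limma). PKNOX2 also needed Vector libraries to pass the filter. PBX2, PBX3 and MEIS2 also did not overlap and were lower in value, but missed the threshold, with log2 differences from -0.81 to -1.21. TGIF1, the most abundant cofactor, had 2385, 2505 and 2413 against 1789, 1534 and 1142 normalized reads (log2 difference 0.73, adjusted p = 0.182, limma).

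Of 25 listed regulators of HOX genes, which include CDX and retinoic acid receptors and Polycomb and Trithorax proteins, 2 were lower and 1 was higher. That was 12% of the list, beside 5.07% of all genes tested called in either direction and 4.12% called lower. RARB, a retinoic acid receptor, had 5.37, 0 and 3.20 against 70.0, 62.4 and 101 normalized reads (log2 difference -4.69, adjusted p = 0.00143, limma). RARB needed Vector libraries to pass the filter. ALDH1A2, which makes retinoic acid, had 16.1, 7.42 and 17.1 against 416, 285 and 772 (log2 difference -5.04, adjusted p = 4.53e-05, limma). ALDH1A3, which does so too, went the other way with 2787, 2236 and 3009 against 681, 1235 and 1293 (log2 difference 1.37, adjusted p = 0.0256, limma). The Polycomb genes EZH2, SUZ12 and EED and the Trithorax genes KMT2A and KMT2D were not called, with log2 differences from -0.72 to 0.54.

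The genes that flank the clusters were not called. Of 16 such genes 15 were tested, and 0 were called in either direction by limma at an adjusted p under 0.05. At an unadjusted p under 0.05 the numbers were 2 higher and 0 lower. EVX1, 42.6 kb from HOXA, was higher without overlap, with 6.44, 3.30 and 8.54 against 0, 2.19 and 0 normalized reads. SKAP1, 98.3 kb from HOXB, was so too, with 48.3, 73.4 and 76.9 against 34.0, 17.5 and 26.6. Over all genes tested 5.07% were called, and 10.1% were lower at the unadjusted threshold. The share higher at the unadjusted threshold is not given here. At such shares a list of 16 holds few calls in any case. LNPK, 90.1 kb beyond HOXD13, had 1187, 661 and 701 against 1244, 1733 and 897 normalized reads. MTX2, 78.5 kb beyond the other end of HOXD, had 553, 808 and 635 against 759.6, 619 and 721. Both overlapped between the groups, with log2 differences of -0.60 and -0.09.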

How the data were processed

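RNA-seq was done by the authors in 3 libraries of HCT-116-PMSCV-GOLPH3 cells and 3 of HCT-116-PMSCV-Vector cells. The submitters' processing notes name fastp 0.20.0, HISAT2 2.1.0, Cufflinks, featureCounts 1.6.1, DESeq2 and the build GRCh38, with no role given. The annotation, the DESeq2 version and the strand setting are not given in the sources used here. The deposited table gives a signal for each gene in each library. At least 99.98% of its values above 0 equalled a whole number times a step of the library, within 0.01, so the authors had divided read counts by a size factor, without correction for gene length. The table held 60590 rows, and where an identifier had a second row (44) both rows were summed. Coordinates and exon lengths came from GENCODE 29 on GRCh38, which held 96.4% of the identifiers. Recovered reads were 15708846 to 21900764 per library, and mitochondrial genes took 4.41% to 9.97%. No libraries of a group agreed within sampling noise (chi-square per degree of freedom at least 65.35).

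Values were compared with limma 3.58.1 in R 4.3.3 (mean-dependent prior variance, two-sided) on log2(value + 1) in genes with at least 1 in at least 3 libraries, with Benjamini-Hochberg adjustment over 26536 genes. The pseudocount understates the change of low genes. The alternatives were quantile normalization, CPM of the recovered reads, no filter and 2 stricter filters, a pseudocount of 0.1, edgeR 4.0.16 and DESeq2 1.42.0 on the recovered reads, the replicate number as a block, the P number as a covariate and as a block, exon bases that no other gene shares (levels only) and each library left out. The replicate numbers did not pair the libraries, since same-numbered libraries deviated together with correlations of -0.23, -0.15 and 0.26. Libraries of the same P number had correlations of 0.26 at P12 and 0.26 at P13, the latter being also the pair of replicates 3. Only 2 such pairs exist, and the labels do not say what P marks. The highest correlation, 0.33, was that of GOLPH3 replicate 1 and Vector replicate 2, which share neither number.

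Values in every library are given for the genes called, for the 3 genes of each cluster with the highest level per kb, for the 2 with the smallest p, and for the called and the most abundant genes of the other lists. Others are named for their place in a cluster and were chosen after their values were seen. The members and lists were chosen with earlier results of these data known. 1 more HOX gene, outside the 38 listed, and the values of some genes of the other lists are not reported here.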

Additional observations from a re-analysis of the deposited data

Results flagged for a closer look

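2 genes had log2 differences of opposite sign in the pairs of libraries that share a P number, each pair being 1 GOLPH3 library against 1 Vector library. HOXA7 differed by 0.042 within P12 and by -0.57 within P13. HOXD8 differed by -0.046 within P12 and by 0.53 within P13. The difference between the pairs was not tested, and with 1 library per label at each P number no test is available.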

How the results depend on the processing

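Of the 10 genes called lower, HOXA5, HOXC4 and HOXC11 passed the threshold under all 17 alternatives, HOXD9 and HOXD10 under all 16 that could fit them, and HOXD11 and HOXD13 under all 13. HOXC10 passed under 16 of 17, and HOXB2 and HOXC8 under 15 of 17. Their highest adjusted p, each with Vector replicate 3 left out, were 0.0559, 0.0852 and 0.0717. Leaving out 1 library gave 5 to 11 HOX genes lower, 2 to 6 noncoding genes, 1 to 3 TALE cofactors and, of the regulators, 0 to 1 higher. It moved the HOXC median log2 difference between -2.22 and -1.03 and the HOXD median between -2.77 and -1.56. A left-out library leaves its group with 2 samples.

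The filter of at least 1 normalized read in every library removes genes at 0, such as HOXD9, HOXD10, HOXD11 and HOXD13, and left 6 HOX genes, 3 noncoding genes, 0 TALE cofactors, 1 regulator lower and 0 regulators higher, with a HOXD median of -0.96. The HOXD median was -6.69 with at least 10 in at least 3 libraries and -3.07 with a pseudocount of 0.1. On the recovered reads edgeR called 11 HOX genes and 1113 of 16908 genes tested, and DESeq2 called 15 HOX genes, 8 noncoding genes and 2 regulators higher. The replicate block kept all 10 HOX genes and gave 3 noncoding genes, although the replicate numbers do not pair the libraries. The P number as a covariate gave 4 regulators higher. The P number as a block rests on 2 pairs and called 22.9% of all genes tested. It gave 25 HOX genes lower, 1 higher at an unadjusted p under 0.05, 10 noncoding genes, 5 TALE cofactors lower and 2 higher, and 5 regulators lower and 6 higher, and the cause was not tested. On exon bases that no other gene shares, the HOXA9 level was 586 per kb against 428. Of the HOX genes named by the rule, HOXC9, which was not called, was the only one to change direction, with log2 differences from -0.60 to 0.021 as each library was left out (0.021 without Vector replicate 3). Depth limits the genes at or under 3 reads in a library, and those with overlapping exons are uncertain.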
